A study of Mus musculus with 14 samples.

Results

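Integrin subunits and classical cadherins and protocadherins were followed across tumors, tumor-bearing glands and wild-type glands of the MMTV-neu mouse. The members were the probe sets whose single platform gene symbol began with Itga or Itgb, or was Cdh or Pcdh followed by a number. The rule took 50 of 12488 probe sets of the array, which stand for 33 genes: 18 integrin genes with 30 probe sets and 15 cadherin and protocadherin genes with 20. Binding proteins and integrin-like genes (4 probe sets named Itgb1bp or Itgb-like) were left out, as were 8 probe sets that name several clustered protocadherins at once. No measured value chose the members.

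Each array measured the RNA of 1 mammary sample. MMTV-neu mice carry the neu oncogene under a promoter taken from mouse mammary tumor virus, which is active in mammary epithelium. The samples were 5 tumors of such mice (numbered 22, 24, 26, 50 and 52 in the labels), 2 tumors of a second set (set B, 80 and 81), 4 adjacent glands, that is, preneoplastic transgenic gland around a tumor (23, 25, 49 and 51), and 3 samples of wild-type gland described as age-matched (40, 41 and 42). Wild-type RNA was pooled from 5 mice per array: pool 40 came from mice of 31 weeks and 87.5% FVB and 12.5% CF-1 background, and pools 41 and 42 from mice of 41 weeks and 97% FVB and 3% CF-1. Ages and backgrounds of the transgenic animals were not given in the labels, and no label names the animal of a tumor or adjacent gland, so p-values measure the spread between these samples. The receptor that the transgene encodes was not analysed here.

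Integrins are receptors of 1 α and 1 β chain that bind matrix proteins or receptors on other cells, and the cytoplasmic tails of most of them are linked to actin. In mammary epithelium, α6β4 anchors cells to laminin in hemidesmosomes, and α3β1 and α6β1 also bind laminin. Classical cadherins join cells of 1 kind to each other and bind catenins inside the cell: E-cadherin (Cdh1) in epithelium, P-cadherin (Cdh3) mainly in basal and myoepithelial cells, and VE-cadherin (Cdh5) in endothelium. Leukocytes carry integrins of their own, with the β2 or β7 chain.

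Of the 33 genes, 17 had a probe set above the filter on dim signals, that is, above the 40th percentile of its own array on at least 3 arrays, and these are called expressed here. They were 12 of the 18 integrin genes (Itga3, Itga6, Itga7, Itga8, Itgal, Itgav, Itgax, Itgb1, Itgb2, Itgb4, Itgb5 and Itgb7) and 5 of the 15 cadherin genes (Cdh1, Cdh3, Cdh5, Cdh13 and Pcdh7). On all 14 arrays, 12 of the 17 lay above that percentile. The rest passed on fewer: Cdh13 and Pcdh7 on exactly the 3 wild-type arrays, Itga8 on tumors 24 and 50 and both set B tumors, Itgal on tumor 26 and adjacent glands 49 and 51, and Itgb2 on 8 arrays of all 4 groups. Cdh13 and Pcdh7 could enter the tests only because they were high in wild-type gland, and no support is drawn from that. Of all 12422 probe sets other than controls, 8616 passed. Intensities of different probe sets are not comparable, so levels are compared between samples and not between genes.

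The arrays carry lot numbers in the labels that partly run with the groups. Lot 2001815 held tumors 22, 24 and 26 and adjacent glands 23 and 25, lot 2004907 held adjacent glands 49 and 51 and pool 40, lot 2004097 held tumors 50 and 52, lot 2003877 held pools 41 and 42, and lot 2006609 held both set B tumors. Tumors and wild-type pools were never on the same lot. The log2 ratio of the 3′ to the 5′ probe set of β-actin, a measure of RNA integrity, was 0.08 to 0.76 in tumors, 0.14 and 0.21 in set B, 0.38 to 1.52 in adjacent gland and 0.90 to 1.51 in wild-type gland. The same ratio of Gapdh was -0.25 to 0.43 in tumors, -0.28 and -0.50 in set B, -0.27 to 0.27 in adjacent gland, and 0.17, 0.11 and 1.48 in pools 40, 41 and 42. In the Gapdh ratio, tumors, adjacent glands and pools 40 and 41 overlapped, and pool 42 stood apart. Both set B tumors lay below all other arrays in that ratio. In the β-actin ratio, all tumors of both sets lay below all wild-type pools. The part of RNA integrity in the results was not tested. Cell content differed as well: markers of luminal epithelium summed to 85380.0 to 135938 in tumors, 80010.0 and 110313 in set B, 58953 to 93838 in adjacent gland and 52352 to 57511 in wild-type gland. In a bulk sample, fewer cells of a type and less RNA per cell cannot be told apart.

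Promoter sequence was given for 5 of the 10 genes that changed between tumors and wild-type gland. The 250 bases before the start site are printed 5′ to 3′ on the gene's own strand, from RefSeq on GRCm38.p6. Itga3, Itgb1 and Itgb5 were called higher in tumors, and Itgb7 and Pcdh7 lower. A link between sequence and direction was not tested. Capitals mark GGGCGG (GC box), CACCTG (E2 box), CCGGAA (the core that ETS factors bind) and TATAAA, on either strand. For Itga3, the upstream of its 2 annotated starts is shown, at chr11:95076715-95076964 on the minus strand. Itgb1 is at chr8:128685404-128685653 on the plus strand, Itgb5 at chr16:33829415-33829664 on the plus strand, Itgb7 at chr15:102231936-102232185 on the minus strand and Pcdh7 at chr5:57717831-57718080 on the plus strand.
Itga3: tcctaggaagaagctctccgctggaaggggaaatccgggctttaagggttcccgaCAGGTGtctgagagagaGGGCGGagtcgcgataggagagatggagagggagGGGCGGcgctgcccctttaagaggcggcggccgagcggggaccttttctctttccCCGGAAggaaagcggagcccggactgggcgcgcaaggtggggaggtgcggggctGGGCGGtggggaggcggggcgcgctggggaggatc
Itgb1: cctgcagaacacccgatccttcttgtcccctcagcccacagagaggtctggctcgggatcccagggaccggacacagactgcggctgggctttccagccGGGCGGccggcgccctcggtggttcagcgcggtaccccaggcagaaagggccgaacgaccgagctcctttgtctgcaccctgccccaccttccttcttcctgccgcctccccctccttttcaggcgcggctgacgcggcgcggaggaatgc
Itgb5: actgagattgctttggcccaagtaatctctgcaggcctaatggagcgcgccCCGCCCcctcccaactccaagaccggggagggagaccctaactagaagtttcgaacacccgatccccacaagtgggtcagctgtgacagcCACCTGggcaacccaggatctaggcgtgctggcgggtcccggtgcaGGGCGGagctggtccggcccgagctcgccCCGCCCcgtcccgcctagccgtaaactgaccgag
Itgb7: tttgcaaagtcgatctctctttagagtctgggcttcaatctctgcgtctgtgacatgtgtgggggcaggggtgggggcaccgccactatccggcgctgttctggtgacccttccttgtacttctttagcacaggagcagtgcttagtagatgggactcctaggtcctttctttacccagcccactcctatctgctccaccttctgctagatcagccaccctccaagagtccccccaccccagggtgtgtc
Pcdh7: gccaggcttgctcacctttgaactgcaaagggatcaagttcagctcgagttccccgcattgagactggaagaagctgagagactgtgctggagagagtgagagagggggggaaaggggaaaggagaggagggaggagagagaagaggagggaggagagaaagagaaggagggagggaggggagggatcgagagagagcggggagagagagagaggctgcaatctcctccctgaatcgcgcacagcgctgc
The Itga3 window held 3 GC boxes, 1 E2 box and 1 ETS core, the Itgb5 window 3 GC boxes and 1 E2 box, and the Itgb1 window 1 GC box. The other Itga3 start, at chr11:95069199-95069448 on the minus strand and not printed, had 1 GC box, none of the other motifs, 50.8% G and C and 5 CpG. None of the 4 motifs was found in the windows of Itgb7 and Pcdh7. Among 32851 promoter windows of the same length, 32.7% held the GC box, 17.2% the E2 box, 12% the ETS core and 12.4% TATAAA. G and C made up 67.6% of the Itga3 window, 68.0% of the Itgb1 window and 65.2% of the Itgb5 window, with 22, 21 and 18 CpG dinucleotides. The Itgb7 and Pcdh7 windows had 56.0% and 58.4% G and C and 5 and 7 CpG, and the median window had 52.4% and 6. A match is a description of the letters, and nothing on binding was measured here.

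The first question of the design is how tumors differ from wild-type gland. Integrin chains of epithelium (Itga3, Itga6 and Itgb4) and chains of wide distribution (Itgb1 and Itgb5) were higher in tumors, by 1.68-fold to 2.38-fold, whereas VE-cadherin, T-cadherin, protocadherin 7, the muscle laminin receptor Itga7 and the leukocyte chain Itgb7 were lower. Of the 25 member probe sets tested, 6 were called higher and 6 lower by limma at an adjusted p under 0.05, which is 48% beside 29.9% of all 8616 probe sets tested (15.8% higher and 14.1% lower). As genes these were 5 higher and 5 lower of 17. The median log2 difference was 0.39 over the 25 probe sets and 0.16 over all tested. The 12 calls include Cdh13 and Pcdh7, which passed the filter on wild-type arrays alone and so had to be lower in tumors. The 48% thus says nothing about the members on its own. Of the 20 member probe sets that passed on arrays of several kinds, 10 were called. The share of all probe sets of that sort was not computed, so no excess is read from this count.

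Both chains of the laminin receptor α6β4 were higher in tumors. Itgb4, the β chain of hemidesmosomes, had intensities of 3199.9, 3866, 2235, 5502 and 3832 in tumors 22, 24, 26, 50 and 52, 1739 and 2507 in set B, 2154, 1957, 2860.1 and 1665 in adjacent glands 23, 25, 49 and 51, and 1494, 1316 and 1730.4 in wild-type pools 40, 41 and 42. Every first-set tumor lay above every wild-type pool, and tumor 26 lay within the range of the adjacent glands. The log2 difference between tumors and wild-type gland was 1.25 ± 0.26 (SE), 2.38-fold, with a limma adjusted p of 0.00183.

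Itga6, the α chain that pairs with β4 or β1, had 5017, 3221, 2727, 3347 and 4361 in tumors, 4209 and 2128 in set B, 2629, 2344, 2419.7 and 1847 in adjacent gland and 2303, 1526 and 1407 in wild-type gland. All 5 tumors lay above all wild-type pools and above all adjacent glands, while set B tumor 81 fell within the range of both. The difference from wild-type gland was 1.10 ± 0.26 on the log2 scale (2.14-fold, limma adjusted p = 0.00445).

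Itga3, the α chain of the laminin receptor α3β1, had 739, 1014, 730.0, 1136 and 939.5 in tumors, 725 and 875 in set B, 817, 1175, 472 and 544 in adjacent gland and 431, 545 and 525 in wild-type gland. Tumors lay above the wild-type pools and within the wide range of the adjacent glands. The log2 difference from wild-type gland was 0.85 ± 0.30 (1.80-fold, limma adjusted p = 0.0417). Single arrays ended this call: without tumor 24, 50 or 52, or without any 1 of the 3 pools, the log2 difference was 0.75 to 0.92 and the adjusted p 0.0675 to 0.139. A second Itga3 probe set had 779, 693, 605, 986 and 1082 in tumors and 741, 626 and 536 in wild-type gland. These groups overlapped, with a difference of 0.37 ± 0.28 (adjusted p = 0.353).

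The epithelial cadherins were not called. Cdh1 had 2437, 2918, 2776, 1516 and 2095 in tumors, 1368 and 1467 in set B, 2452, 4096, 1479.5 and 1377 in adjacent gland and 1268, 1436 and 1632 in wild-type gland. Its log2 difference between tumors and wild-type gland was 0.67 ± 0.31 (limma adjusted p = 0.119), with an unadjusted 95% interval of 0.01 to 1.33. Array lot moved with these values: the 5 arrays of lot 2001815, tumors and adjacent glands alike, had 2437 to 4096, and the 9 arrays of the other lots had 1268 to 2095. It was the 1 member probe set of 25 with all arrays of that lot above all others, a pattern found in 3.7% of all probe sets tested. Without those 5 arrays the difference between tumors and wild-type gland was 0.31 (adjusted p = 0.367), an alternative chosen after seeing the data. With lot as a fixed block it was -0.058. With the fit restricted to tumors and wild-type gland it was called, at an adjusted p of 0.0456.

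Cdh3 had 1450.0, 1966, 1411, 991 and 1090.2 in tumors, 804 and 1069.6 in set B, 1791, 1847, 1479.7 and 1623 in adjacent gland and 1071, 1327 and 905 in wild-type gland. Tumors and wild-type gland overlapped, with a log2 difference of 0.30 ± 0.24 (limma adjusted p = 0.358) and an unadjusted 95% interval of -0.20 to 0.81, and without lot 2001815 it was -0.065. A second Cdh3 probe set differed by -0.04 ± 0.45 and was not called (adjusted p = 0.953). Of 7 other markers of basal and myoepithelial cells tested, 6 were lower in tumors than in wild-type gland and none was higher, with a median log2 difference of -2.42. The list includes smooth muscle genes, and its basal keratins Krt5 and Krt14 did not pass the filter and were not tested. All 9 genes of the list on the array, these keratins included, summed to 5000.0 to 9224 in tumors and 7105 and 8607 in set B. The sums were 22690.0 to 41695 in adjacent gland and 30481 to 36469 in wild-type gland. The luminal list ran the other way, with 8 of 12 higher and 1 lower and a median of 1.43.

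Among the chains of wide distribution, Itgb1 and Itgb5 were higher in tumors. Itgb1, the β chain shared by most matrix receptors of the family, had 35118, 26417, 27729.5, 29049 and 26241 in tumors, 27196 and 22445 in set B, 22684, 19335, 20633 and 24401 in adjacent gland and 21043, 16669 and 14272 in wild-type gland. Every tumor, set B included, lay above every wild-type pool. Tumors differed from wild-type gland by 0.75 ± 0.17 on the log2 scale (1.68-fold, limma adjusted p = 0.00397). This probe set carries the suffix for probes shared within a family of similar sequences, so the value is uncertain. The other Itgb1 probe set, also built under relaxed design rules, had 9469, 7687, 7438, 6009.7 and 6221 in tumors, 9042 and 6732 in set B, 5544, 3996, 3556 and 4197 in adjacent gland and 3584, 4049.8 and 3862 in wild-type gland. Here all tumors lay above all glands, and the difference from wild-type gland was 0.92 ± 0.19 (adjusted p = 0.00166).

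Itgb5, the β chain of the vitronectin receptor αvβ5, had 6276, 5303, 7587, 9007 and 7735 in tumors, 5946 and 12591 in set B, 5021, 4102, 5423 and 3708 in adjacent gland and 2732, 4074 and 4289 in wild-type gland. Tumors and set B lay above all wild-type pools, and tumor 24 lay below adjacent gland 49. Tumors differed from wild-type gland by 0.96 ± 0.25 on the log2 scale (1.95-fold, limma adjusted p = 0.00853), and without pool 40, the lowest of the pools, it was 0.76 and no longer called (adjusted p = 0.0607). A second probe set of the gene, with shared probes, differed by 0.67 ± 0.27 and was not called (adjusted p = 0.0732). Itgav, the α chain of the same receptor, had 10044, 15304, 8848, 8357 and 9679 in tumors, 7810.0 and 12124 in set B, 10636, 8975, 7349.9 and 6055 in adjacent gland and 8027, 6790.2 and 6486 in wild-type gland on its brightest probe set, which shares probes with a family. It differed by 0.53 ± 0.23 between tumors and wild-type gland and was not called (adjusted p = 0.0951), and with lot as a fixed block it was -0.086. Its other 2 probe sets were not called either, with adjusted p of 0.717 and 0.317.

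Itga8, the α chain of the nephronectin receptor α8β1, known from mesenchyme and smooth muscle, differed widely between tumors. It had 139, 596, 327, 1911 and 364 in tumors 22, 24, 26, 50 and 52, 909.5 and 1862 in set B tumors 80 and 81, 157, 142, 308 and 111 in adjacent gland and 192, 250.2 and 94.5 in wild-type gland. Tumor 50 and both set B tumors stood above all other arrays, and tumor 22 lay within the range of the glands. The log2 difference between first-set tumors and wild-type gland was 1.41 ± 0.65, not called (limma adjusted p = 0.115), and without tumor 22 it was called (1.84, adjusted p = 0.0323). Without lot 2001815, which leaves tumors 50 and 52, the difference was 2.30 (adjusted p = 0.0335). Itga8 passed the filter on tumor arrays alone, where it was high, so these p-values give no support. The second Itga8 probe set, with shared probes, had 63.9, 64.2, 101, 548 and 83.3 in tumors, 372 and 605 in set B and 32.5 to 123 in wild-type gland, so the same 3 tumors were high.

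The ligand of α8β1 was higher in tumors. Npnt (nephronectin) had 23677, 10425, 20795, 25403 and 15828 in tumors, 14998 and 25866 in set B, 4024, 747, 10959.7 and 617 in adjacent gland and 534, 324 and 184 in wild-type gland. All tumors of both sets lay above all wild-type pools, and adjacent gland 49 lay above tumor 24. The log2 difference of tumors from wild-type gland was 5.85 ± 0.71 (57.8-fold, limma adjusted p = 1.62e-05). All 7 tumors were above the wild-type pools in Npnt, whereas tumor 22 was not in Itga8.

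The endothelial cadherins were lower in tumors. Cdh5 (VE-cadherin), which joins endothelial cells, had 988, 729, 920.4, 905 and 1685 in tumors, 776 and 1323 in set B, 3398, 1126, 3131 and 5176 in adjacent gland and 3489, 5488 and 4803 in wild-type gland. All tumors lay below all wild-type pools, and adjacent gland 25 fell among the tumors, at 1126, while the other adjacent glands had 3131 to 5176. The log2 difference of tumors from wild-type gland was -2.17 ± 0.39, 4.50-fold lower (limma adjusted p = 0.000621). Cdh13 (T-cadherin), a cadherin without a cytoplasmic tail that binds adiponectin and is found on vessels, had 59.3, 32.4, 16.1, 43.3 and 97.7 in tumors, 34.1 and 46.9 in set B, 429.7, 74.3, 241 and 253 in adjacent gland and 418, 527 and 461 in wild-type gland. All tumors and both set B tumors were under the floor of 101 used in the test. T-cadherin was thus at least 4.60-fold lower in tumors than in wild-type gland (limma adjusted p = 0.00178). It passed the filter on wild-type arrays alone, the group where it was high, so this p-value gives no support.

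Endothelial markers moved with both genes. Of 11 other endothelial markers tested, 9 were lower in tumors and none higher, with a median log2 difference of -1.85. Their summed intensity was 6107 to 9277 in tumors, 5882 and 7047 in set B, 13767 to 25641 in adjacent gland and 25042 to 29663 in wild-type gland. Adjacent gland 25, with the lowest Cdh5 and Cdh13 of the adjacent glands, also had the lowest of these sums, 13767. The part of vessel content in the Cdh5 and Cdh13 values was not tested.

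Itga7, the α chain of the laminin receptor of muscle, was lower in tumors on both of its expressed probe sets. On 93061_at it had 169, 244, 776, 121 and 161 in tumors, 57.8 and 213 in set B, 1783, 1321, 842 and 1506 in adjacent gland and 1663, 1697 and 1474 in wild-type gland. Tumors of both sets lay below all adjacent and wild-type glands, tumor 26 being the highest of them. The log2 difference of tumors was -2.81 ± 0.49 from wild-type gland (7.04-fold lower, limma adjusted p = 0.000434) and -2.52 ± 0.45 from adjacent gland (adjusted p = 0.00104). On the brighter probe set, which shares probes with a family, these differences were -1.36 ± 0.33 and -1.13 ± 0.30 (adjusted p = 0.00537 and 0.0181).

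Of 9 skeletal muscle markers, 6 were lower and 1 higher in tumors than in wild-type gland, with a median log2 difference of -3.25, and none was called between tumors and adjacent gland by limma, with a median of -1.24. They summed to 2076 to 8156 in tumors, 1520.0 and 2045 in set B, 31368 and 35124 in adjacent glands 23 and 25, 2315 and 2747 in adjacent glands 49 and 51, and 49245 to 90917 in wild-type gland. Adjacent glands 49 and 51, whose sums lay within the range of the tumors, had Itga7 intensities of 842 and 1506 on 93061_at. The basal and myoepithelial list, which includes smooth muscle genes, had 6 of 7 members lower in tumors than in adjacent gland, with a median of -2.36. The part of either list in the Itga7 values was not tested.

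Pcdh7, a protocadherin first described in brain and heart, had 36.6, 108, 34.6, 39.1 and 33.4 in tumors, 64.2 and 158 in set B, 311, 198, 239.8 and 149.7 in adjacent gland and 393, 441 and 418 in wild-type gland. The groups formed steps: all tumors lay below all adjacent glands, and these below all wild-type pools, with set B tumor 81 among the adjacent glands. On the log2 scale, tumors differed from wild-type gland by -2.02 ± 0.40 (limma adjusted p = 0.00122). This difference takes the floor for 4 of the 5 tumors, so its size is understated. Pcdh7 passed the filter on wild-type arrays alone, the group where it was high, so the p-value gives no support. Adipocyte and fibroblast markers, abundant in the glands, moved with it: all 8 adipocyte markers tested and all 12 fibroblast markers were lower in tumors, with medians of -6.15 and -2.90, and their part was not tested.

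Leukocyte integrins gave 1 call. Itgb7, the β chain of the lymphocyte receptors α4β7 and αEβ7, had 441, 1124, 646, 703 and 770.0 in tumors, 613 and 896 in set B, 1082, 1162, 1809.6 and 1457 in adjacent gland and 1172, 1407 and 1435 in wild-type gland. Tumors lay below the wild-type pools, the closest values being 1124 in tumor 24 and 1172 in pool 40. The log2 difference of tumors from wild-type gland was -0.92 ± 0.29 (1.89-fold lower, limma adjusted p = 0.0232). Without tumor 22, pool 41 or pool 42 it was -0.88 to -0.75, with an adjusted p of 0.0505 to 0.0859. T cell markers summed to 1221 to 2229 in tumors, 1247 and 1394 in set B, 4546 to 8186 in adjacent gland and 4613 to 5257 in wild-type gland. Only 2 of the 7 on the array passed the filter, of which 1 was lower in tumors than in wild-type gland and none higher. B cell markers summed to 1785 to 3398 in tumors, 1297 and 1558 in set B, 2368 to 9108 in adjacent gland and 2371 to 2476 in wild-type gland. Of 5 tested, 1 was higher in tumors and none lower. The part of either list in the Itgb7 values was not tested.

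The other 3 leukocyte chains were not called in any comparison. Itgb2, the shared β chain of LFA-1 and Mac-1, had 183, 464, 188, 311 and 403 in tumors, 466 and 265 in set B, 587, 324, 667 and 688 in adjacent gland and 356, 682 and 497 in wild-type gland. Its log2 difference between tumors and wild-type gland was -0.78 ± 0.41, with an unadjusted 95% interval of -1.64 to 0.09 (limma adjusted p = 0.166), and with lot as a fixed block it was 0.136. Itgax, also known as CD11c, the α chain of αXβ2, had 1038, 1625, 1064, 1172 and 1729 in tumors, 961 and 902 in set B, 1023, 1406, 1409 and 981 in adjacent gland and 1031, 1010.1 and 1026 in wild-type gland, and its 3 wild-type values lay close together. Itgal, the α chain of LFA-1, had 249, 250.1, 428, 162 and 170.4 in tumors, 261 and 239 in set B, 173, 192, 446 and 498 in adjacent gland and 212, 241 and 24.3 in wild-type gland. Macrophage markers gave 2 lower of 7 tested in tumors against wild-type gland and none higher.

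Adjacent gland was compared with wild-type gland to ask how preneoplastic gland differs from normal gland. None of the 25 probe sets was called by limma, beside 1.17% of all probe sets tested. An unadjusted p under 0.05 was found for 3, the brighter Cdh3 probe set, Cdh13 and Pcdh7. The share of all probe sets under it was not computed, so nothing is read from this count. On that probe set Cdh3 was 0.63 ± 0.25 on the log2 scale (adjusted p = 0.254), with all 4 adjacent glands above all pools. Its second probe set was 0.16 ± 0.47 (adjusted p = 0.908), and there the groups overlapped, with 291 to 503 in adjacent gland and 195.5 to 576 in the pools. Cdh13 was -1.04 ± 0.48 (adjusted p = 0.326) and Pcdh7 was -0.94 ± 0.42 (adjusted p = 0.307), and the 4 adjacent glands all lay below the pools for Pcdh7. Both genes passed the filter on wild-type arrays alone, the group where they were high, so no support is drawn from these values. Of all probe sets tested, 7.6% had every adjacent gland above all pools and 6.82% had every adjacent gland below. The 4 epithelial genes were all on the positive side, at 0.43 to 0.57, and none of these differences passed the test. Itga7 and Itgb7 differed by -0.23 ± 0.34 and 0.02 ± 0.30, with unadjusted 95% intervals of -0.96 to 0.50 and -0.62 to 0.65.

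Tumors were also set against adjacent gland, a comparison in which lot 2001815 holds samples of both groups. Of the 25 probe sets, 2 were called higher and 4 lower, 24% beside 14.4% of all probe sets tested (5.34% higher and 9.04% lower). The higher ones were Itgb4, by 0.76 ± 0.24 on the log2 scale (limma adjusted p = 0.0446), and the second Itgb1 probe set, by 0.77 ± 0.17 (adjusted p = 0.00672). The lower ones were both Itga7 probe sets, Cdh5, by -1.49 ± 0.36 (adjusted p = 0.0106), and Itgb7, by -0.94 ± 0.26 (adjusted p = 0.0235). For Itgb4, Cdh5 and Itgb7 the groups overlapped. With lot as a fixed block, 2 of the 25 probe sets were called, 8% beside 6.93% of all: Itga7 93061_at, at -2.27, and the second Itgb1 probe set, at 0.79 (adjusted p = 0.0316 and 0.0434). In that fit Cdh5 was -1.17, Itgb7 -0.71, Itgb4 0.56 and the brighter Itga7 probe set -1.32, with adjusted p of 0.147, 0.292, 0.364 and 0.101. Leaving out any 1 of 7 arrays (tumors 22, 24, 50 and 52, adjacent glands 23, 25 and 51) ended the Itgb4 call, with log2 differences of 0.60 to 0.80 and adjusted p of 0.0609 to 0.144. Leaving out tumor 22 or 26 or adjacent gland 49 or 51 ended the Itgb7 call, at -0.91 to -0.77 and adjusted p of 0.0506 to 0.078. Without adjacent gland 23, the brighter Itga7 probe set differed by -0.93 (adjusted p = 0.0691).

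Cdh13 and Pcdh7 were not called against adjacent gland, at -1.16 ± 0.42 and -1.08 ± 0.37 (limma adjusted p = 0.0793 and 0.0617). Both depended on the floor: at the 10th percentile in place of the 20th they were -1.96 and -2.07 and both were called (adjusted p = 0.0364 and 0.0146). Without adjacent gland 25, Cdh13 differed by -1.55 (adjusted p = 0.0106), and without adjacent gland 51, Pcdh7 differed by -1.26 (adjusted p = 0.0487). The floor at the 20th percentile was taken for all 5 tumors in Cdh13 and for 4 in Pcdh7. Both genes passed the filter on wild-type arrays alone, so no support is drawn from these calls. Itga6 and Itgb5 differed by 0.67 ± 0.24 and 0.65 ± 0.23 and were not called (adjusted p = 0.0736 and 0.0742). Without tumor 24, Itgb5 was called, at 0.75 (adjusted p = 0.0394), and without tumor 22, Itga8 was, at 1.87 (adjusted p = 0.0383). Itga8 passed the filter on tumor arrays alone, where it was high, so its p-value gives no support.

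The 2 set B tumors served to test whether differences found in the first tumors are seen again. Both comparisons use the same 3 wild-type pools, so their values stand side by side and are not independent. Against wild-type gland, 4 probe sets were called higher and 5 lower in set B, 36% of 25 beside 23.2% of all probe sets tested (11.2% higher and 12% lower). The higher ones were both Itga8 probe sets, Itgb5 and the second Itgb1 probe set, and the lower ones were both Itga7 probe sets, Cdh5, Cdh13 and Pcdh7. Both Itga8 probe sets passed the filter on tumor arrays alone, and Cdh13 and Pcdh7 on wild-type arrays alone. These 4 of the 9 calls thus entered through the group where they were high, so their p-values give no support. The 36% says nothing on its own. Itgav 98366_at also passed on tumor arrays alone and was not called (limma adjusted p = 0.105). Of the 20 member probe sets that passed on arrays of several kinds, 5 were called, again without the share of all such probe sets beside it. Itga8 differed by 2.94 ± 0.82 on the log2 scale in set B (limma adjusted p = 0.0159), against 1.41 ± 0.65 in the first tumors. Itgb5 differed by 1.25 ± 0.31 and Cdh5 by -2.16 ± 0.49 in set B (adjusted p = 0.00855 and 0.00499), against 0.96 ± 0.25 and -2.17 ± 0.39 in the first tumors.

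The laminin receptor chains were not called in set B. Itgb4 differed from wild-type gland by 0.47 ± 0.33, Itga6 by 0.81 ± 0.32 and Itga3 by 0.68 ± 0.37, none of them called (limma adjusted p = 0.332, 0.0812 and 0.214). Without tumor 81, Itga6 was called, at 1.31 (adjusted p = 0.0305), and likewise without pool 40, at 1.03 (adjusted p = 0.0461). Cdh1 differed by -0.02 ± 0.39 in set B, against 0.67 ± 0.31 in the first tumors.

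When set B was compared with the first tumors directly, none of the 25 probe sets was called by limma, as was none of all 8616 (0%). An unadjusted p under 0.05 was found for 2, Itgb4 and the second Itga8 probe set. The share of all probe sets under it was not computed. Itgb4 was -0.78 ± 0.30 on the log2 scale, with an unadjusted 95% interval of -1.41 to -0.14 (adjusted p = 0.401). The second Itga8 probe set was 1.74 ± 0.66 (0.33 to 3.15, adjusted p = 0.401), and it passed the filter on tumor 50 and both set B tumors alone. Cdh1 was -0.69 ± 0.36 (-1.45 to 0.07) and the brighter Itga8 probe set was 1.53 ± 0.75 (-0.06 to 3.11), neither with an unadjusted p under 0.05. All samples of set B lie on 1 lot that holds nothing else, so lot and set cannot be told apart.

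With 2 arrays in set B, 1 array moved the count. Without tumor 80, 3 of the 9 probe sets were called, and without tumor 81, 4 of the 9 were, with Itga6 called in addition. Itgb5 rested on tumor 81, without which it differed by 0.71 (limma adjusted p = 0.196), and Itga8 differed by 2.42 without it (adjusted p = 0.161) and by 2.57 without pool 42 (adjusted p = 0.0623). Cdh5 and the second Itgb1 probe set differed by -1.77 and 0.81 without tumor 80 (adjusted p = 0.0754 and 0.0863). Cdh13 missed the threshold without either of the set B tumors (adjusted p = 0.068 and 0.0704), and Pcdh7 without either of them or without pool 41 or 42 (0.055 to 0.176). The second Itga8 probe set lost its call under each of the 5 leave-outs of this comparison (adjusted p = 0.0735 to 0.271), and the brighter Itga7 probe set without tumor 80 (-1.47, adjusted p = 0.0641). The Itga7 probe set 93061_at was called under each of them.

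Members below the filter were 16 genes: Itga2, Itga4, Itga5, Itgae, Itgam, Itgb3, Cdh2, Cdh4, Cdh6, Cdh8, Cdh9, Cdh10, Cdh11, Cdh15, Cdh16 and Pcdh12. Of the 25 member probe sets that did not pass, 23 were under the 40th percentile on every array. Just outside the filter, with 1 array above the percentile, stood Itgb3 and 1 Itga4 probe set, and just inside, with 3, stood among others Cdh13 and Pcdh7. In a fit without the filter, over 12422 probe sets, 3 of these genes were called between tumors and wild-type gland, which is 3 of the 25 probe sets that did not pass, or 12%, beside 19.1% of all probe sets in that fit.

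Itgb3, the β chain of αvβ3 and of the platelet fibrinogen receptor, had 219.5, 203, 238, 635 and 196 in tumors, 255 and 301 in set B, 107, 23.9, 129.5 and 50.4 in adjacent gland and 48.6, 18.4 and 104 in wild-type gland. All 7 tumors lay above all 7 glands. Without the filter the log2 difference of tumors was 1.38 ± 0.32 from wild-type gland (limma adjusted p = 0.0118) and 1.28 ± 0.30 from adjacent gland (adjusted p = 0.0215), and that of set B from wild-type gland was 1.44 ± 0.40 (adjusted p = 0.0356). Of the platelet markers, 3 were on the array and none passed the filter, with summed intensities of 274 to 727 in tumors and 392 to 613 in wild-type gland.

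Itga4, the lymphocyte α chain that pairs with β1 or β7, was lower in tumors on 1 of its 3 probe sets, with 159, 226, 235, 175 and 236 in tumors, 179 and 152 in set B, 298, 227, 367 and 335 in adjacent gland and 271, 331 and 388 in wild-type gland. Its log2 difference without the filter was -0.68 ± 0.20 (limma adjusted p = 0.0373). Cdh9 was at or under the floor in all 5 tumors and had 149.5, 128 and 238 in wild-type gland (adjusted p = 0.0357 without the filter). Cdh2 (N-cadherin), a cadherin of mesenchymal and neural cells, had 207, 106, 124, 56.2 and 39.7 in tumors and 250.1, 289 and 258 in wild-type gland, under the percentile on every array. Its log2 difference was -1.11 ± 0.40 and was not called (adjusted p = 0.0805). Cdh11, a fibroblast cadherin, had 52.3 to 217 in tumors and 181 to 331 in wild-type gland (adjusted p = 0.187).

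Genes that act with the members were counted in lists. Of 13 matrix ligands of integrins tested, 3 were higher and 5 lower in tumors than in wild-type gland, with Vtn (vitronectin, the ligand of αvβ5), Nid1 and Postn at -2.90 ± 0.57, -2.60 ± 0.34 and -2.54 ± 0.40 on the log2 scale (limma adjusted p = 0.00113, 3.27e-05 and 0.000189). Lama3, a chain of the laminin that α6β4 binds, was -2.02 ± 0.41 (adjusted p = 0.00149). The other laminin chains tested did not fall in all tumors. Lamb3 had 348, 1678.5, 3928, 4218 and 2479 in tumors, 3026 and 5219 in set B and 1645 to 1939.5 in wild-type gland. Tumor 22 thus lay below all pools, and tumors 26, 50 and 52 above them. Lama5 overlapped, with 1516 to 2587 in tumors and 1392 to 2240 in wild-type gland. Of 5 counter-receptors of leukocyte integrins, 1 was higher and 3 lower: Icam2, Icam1 and Vcam1, found on endothelium among other cells, at -2.69 ± 0.54, -1.99 ± 0.45 and -0.90 ± 0.20 (adjusted p = 0.00129, 0.00358 and 0.00329). Icam2 was at the floor in 4 of the 5 tumors. Under lot as a fixed block these 3 genes were -0.18, -1.36 and -1.52 (limma adjusted p = 0.955, 0.49 and 0.0396). Vcam1 lost its call without lot 2001815 (adjusted p = 0.0536). F11r, a junction protein of epithelium, was 1.10 ± 0.18 (adjusted p = 0.000244).

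Of 16 cytoplasmic partners of integrins, 6 were higher and 3 lower. The actin crosslinker Actn4 was 2.66 ± 0.26 on the log2 scale, the kinase Src 1.73 ± 0.48 and the integrin activator Fermt2 (kindlin-2) 1.32 ± 0.26 (limma adjusted p = 1.90e-06, 0.0132 and 0.00107). The Src call was lost without pool 41 or pool 42, at 1.37 to 1.43 (adjusted p = 0.0773 to 0.084) and also without lot 2001815. Itgb1bp1, a protein that binds the β1 tail and limits its activation, was lower, with 637, 674, 886, 851 and 784 in tumors and 2830.4, 2955 and 3411 in wild-type gland (-2.01 ± 0.22, adjusted p = 6.92e-06). The integrin-linked kinase Ilk was -0.79 ± 0.23 (adjusted p = 0.0152). Of 10 tetraspanins and lateral partners, 4 were higher and 2 lower. Tspan8 had 7803, 5470.3, 5782, 5388 and 5939 in tumors, 1731, 788, 3876 and 487 in adjacent gland and 362, 288 and 280.2 in wild-type gland, 19.6-fold higher in tumors (log2 difference 4.29 ± 0.45, adjusted p = 3.95e-06). Cd82, Cd81 and Cd9 were 1.69 ± 0.18, 1.21 ± 0.19 and 1.17 ± 0.19 (adjusted p = 4.89e-06, 0.000174 and 0.000224). Cd151, which binds α3 and α6 integrins directly, was lower, at -0.55 ± 0.17 (adjusted p = 0.0228).

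Of 9 cytoplasmic partners of cadherins, 3 were higher and 1 lower in tumors. β-catenin (Ctnnb1), which binds the tail of classical cadherins, was 0.61 ± 0.19 on the log2 scale (limma adjusted p = 0.0258), whereas α-catenin (Ctnna1) and p120 (Ctnnd1) were 0.24 ± 0.18 and 0.20 ± 0.18 and not called (adjusted p = 0.343 and 0.426). The Ctnnb1 call was lost without tumor 26 or 52 or pool 40 or 42, at 0.53 to 0.58 (adjusted p = 0.0518 to 0.113), and also with lot as a random block and without lot 2001815. Among the receptor phosphatases of junctions, Ptprm was -2.67 ± 0.38 and Ptprf 1.26 ± 0.31 (adjusted p = 7.70e-05 and 0.0057). The desmosomal cadherins, a class of their own that fell outside the member rule, were counted apart. Dsg2 had 3933, 4036, 4017, 3378 and 3389 in tumors, 3588 and 3831 in set B, 2345, 2071, 2137 and 1915 in adjacent gland and 986, 679 and 509 in wild-type gland, with all tumors above all adjacent glands and these above all pools (2.42 ± 0.20, adjusted p = 2.62e-07). Dsc2 was 3.10 ± 0.43 (adjusted p = 5.30e-05), on a probe set with shared probes. Of 7 desmosomal genes tested, 3 were higher and none lower; the third, Pkp3, was called in 1 of 8 leave-outs.

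Array lot bears on the comparison of tumors with wild-type gland. With lot as a fixed block, the estimate runs through adjacent gland, from tumors to adjacent gland within lot 2001815 and from there to pool 40 within lot 2004907. Under that fit none of the 25 probe sets was called, beside 4.18% of all probe sets tested. The log2 differences kept their direction for 9 of the 10 genes: Itgb4 was 1.11, Itgb5 1.19, Itgb1 0.59, Itga6 0.39, Cdh5 -0.96, Cdh13 -1.80, Pcdh7 -2.31, Itga7 -1.61 on its brighter probe set and Itgb7 -0.24. Itga3 was -0.028. Itga6, Cdh5 and Itgb7 thus moved by more than 1.5 times. With lots 2004097 and 2004907, which differ by a swap of digits, taken as 1 lot, 3 probe sets were called, 12% beside 10.7% of all probe sets tested: Itgb4, Itgb5 and Itga7 93061_at. The log2 differences under that fit were Itgb4 1.48, Itgb5 1.5, Itgb1 0.45, Itga6 0.64, Itga3 0.91, Cdh5 -1.35, Cdh13 -1.98, Pcdh7 -2.05, Itga7 -1.32 and Itgb7 -0.56. With lot as a random block they were Itgb4 1.27, Itgb5 0.99, Itgb1 0.74, Itga6 1.04, Itga3 0.75, Cdh5 -2.01, Cdh13 -2.16, Pcdh7 -2.06, Itga7 -1.39 and Itgb7 -0.84, and Itga3 and Itgb7 were not called. Direction was kept by all 10 genes in both of these fits. Without the 5 arrays of lot 2001815 they were Itgb4 1.61, Itgb5 1.20, Itgb1 0.69, Itga6 1.17, Itga3 1.05, Cdh5 -1.87, Cdh13 -2.20, Pcdh7 -2.04, Itga7 -1.32 and Itgb7 -0.86. Within lot 2001815, 3 tumors against 2 adjacent glands, none of the 25 was called, and Cdh5 differed by -1.17, Itga7 93061_at by -2.27 and Itgb4 by 0.56.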

How the data were processed

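RNA of 14 mouse mammary samples was measured on 1-color oligonucleotide arrays. The deposited table gives 1 linear intensity for each probe set and array. Per the deposited values, the authors had scaled every array to the same 2% trimmed mean (1500.67 to 1500.9, medians 543.65 to 784.1) and no further normalization was applied. The sources used here do not name the software. Values under 101.42, the pooled 20th percentile, were set to it and log2 was taken. Leaving out 66 control probe sets, and 3806 others that passed their array's 40th percentile on fewer than 3 arrays, left 8616 to test. The 4 groups were fitted together over all arrays with limma 3.58.1 (R 4.3.3; lmFit, eBayes with intensity trend). p-values are two-sided, adjusted by Benjamini and Hochberg over the 8616, and called under 0.05. The floor understates changes of dim probe sets, and precision is limited by how many arrays there are. Errors are standard errors of the fit, and 95% intervals are unadjusted. The procedure was tested on simulated data.

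Probe sets were named by the platform annotation, with symbols updated by gene number (10839 probe sets, RefSeq GRCm38.p6), and 10855 had 1 gene, 396 several and 1237 none. A gene was represented by its probe set with the highest mean. The genes to name were those called in any of 5 comparisons, plus Itga6, Itgb4, Itgb1, Cdh1, Cdh3 and Cdh5, and up to 4 called genes with the largest change in each partner list. Expressed members never called (Itgb2, Itgax, Itgal and Itgav) were to be given by ranges, and their value on every array is printed instead. Itgb3, Itga4, Cdh9, Cdh2, Cdh11, Lama3, Lamb3, Lama5, Ilk, Cd151, Ctnna1 and Ctnnd1 were chosen to be named after their values were seen. The members, the lists and the settings were chosen with earlier results of these data known. Alternatives were the floor, the filter, quantile normalization, array lot as a block, fits of 2 groups, no trend and leaving out each array. Promoter windows were read from a RefSeq table (GRCm38.p6), and no protein sequence was used.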

Additional observations from a re-analysis of the deposited data

Results flagged for a closer look

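In the 50 groups of 4 or 5 arrays checked (25 member probe sets in tumors and in adjacent gland), 2 held 1 array far from the others, and chance gives about 1 in 20. Itga8 on 100314_f_at was 548 in tumor 50 and 63.9 to 101 in the other 4 tumors, which were all at the floor of the log2 values, so the gap to the nearest array was 1 of the range of the group. On the other Itga8 probe set, tumor 50 was also the highest tumor, at 1911, followed by tumor 24 at 596. Pcdh7 on 102280_at was 108 in tumor 24 and 33.4 to 39.1 in the other 4 tumors, all at the floor, and the gap was again 1 of the range. The value of 108 stands just over the floor of 101, and this gap exists only because the others were set to the floor.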

How the results depend on the processing

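Of the member probe sets called between tumors and wild-type gland, 12 as reported, none was called with array lot as a fixed block (4.18% of all probe sets were) and 3 with lots 2004097 and 2004907 taken as 1 (10.7%). Leaving out 1 array gave 10 to 12. For tumors against adjacent gland, 6 as reported, 2 were called with lot as a fixed block, 3 without lot 2001815 and 0 within that lot, beside 6.93%, 10.6% and 2.43% of all probe sets, and leaving out 1 array gave 4 to 6. For set B against wild-type gland, 9 as reported, leaving out 1 array gave 3 to 9. Lot as a fixed block cannot be estimated for set B, and leaving out 1 array in turn gave 0 of 25 for adjacent against wild-type gland and for set B against the first tumors. One called result turned its direction, Itga3 between tumors and wild-type gland, at -0.028 with lot as a fixed block; the cause was not tested. In that fit Cdh1, all 3 Itgav probe sets, Itgb2 and the second Itga3 probe set, none of them called, turned as well. Quantile normalization gave 12, 6 and 10 calls in the 3 comparisons with calls, and the consensus correlation of lot as a random block was 0.151. Over the values of single genes and all alternatives, 2203 kept their side of the threshold and direction, 105 were not called in either and turned, 135 lost a call and 20 gained one. Of the 23 partner genes, all kept their direction with lot as a fixed block and 6 kept their call. Icam2 was near no difference in that fit, at -0.18. No paired analysis was made, because no label names the animal of a tumor or adjacent gland. Some tumors and adjacent glands carry consecutive numbers, such as tumor 22 and adjacent gland 23. Whether such samples came from the same animal was not tested, and the fits treat all arrays as separate samples. Set B has 2 arrays and wild-type gland 3, and 2.32% of tested values were at the floor, where differences have only a bound.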
